A study of Mus musculus with 12 samples.

Results

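Ffar4, the receptor GPR120 for long-chain fatty acids, and 7 genes for the uptake and binding of fatty acids (Cd36, Slc27a1, Slc27a3, Slc27a4, Fabp4, Fabp5 and Lpl) were followed across the eyelids of mice on a high-fat or a standard diet. These 8 genes, of 21936 in the expression table, were taken by symbol from a list drawn up with the diet results of the same libraries known. Differences of these genes between the diets, averaged or at 1 time, are therefore given as a description and without a test. Tests are given for time of day and for a change of the diet difference with time (the interaction). All 8 passed the filter on low values (above 1 FPKM in at least 2 libraries), as did 13228 genes in all. FPKM are reads per kilobase of a gene's merged exons, scaled to the depth of the library.

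Long-chain fatty acids reach cells bound to albumin or are released from lipoproteins by lipoprotein lipase (Lpl) on the vessel wall. CD36 and the fatty acid transport proteins of the SLC27 family help to take them up and to activate them to acyl-CoA, and the fatty acid binding proteins carry them in the cytosol. FFAR4 reads them outside the cell and signals through Gq and beta-arrestin. The meibomian gland of the eyelid margin fills its cells with lipid and releases them whole as meibum, the oil layer of the tear film.

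The high-fat mice received a diet with 60 kcal% fat and the control mice a standard diet with 10 kcal% fat. All were male C57BL/6 mice under a 12 h light period, 6 to 8 weeks old when the diets began, with no allele or drug named for either diet. The labels give 3 months of diet and the series text 4 months, and the difference was not resolved. Tissue was taken at 9h, 15h and 21h, with 2 libraries for each diet and time, 6 for each diet and 12 in all. The labels call the tissue meibomian gland, but the text of the series speaks of whole lids, upper and lower. Whether pooled mice or single mice gave each library is not stated in the sources used here, and p-values thus refer to the spread among libraries, which may be technical in part.

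Depth ran between 14096362 and 17889158 reads per library. Markers of several eyelid tissues were abundant in all libraries. Awat2, a wax synthase of meibocytes, averaged 1216 FPKM in high-fat and 1059 FPKM in control libraries. The keratin Krt14 averaged 1721 FPKM in high-fat and 1790 FPKM in control libraries, and the muscle actin Acta1 averaged 1170 FPKM in high-fat and 1325 FPKM in control libraries. Adipocyte markers varied in level and in direction, with Plin4 at 41.3 FPKM in high-fat and 29.5 FPKM in control libraries, Cfd at 11 FPKM in high-fat and 15.8 FPKM in control libraries, and Adipoq at 4.35 FPKM in high-fat and 2.53 FPKM in control libraries. Both high-fat libraries numbered 6 at 15h and 21h were the highest in 4 of 5 immediate early genes (Fos, Fosb, Egr1 and Junb). Fos had 101.4 and 162 FPKM in them, against 6.76 to 51.5 FPKM in the other 10 libraries. Arc did not stand apart, at 3.56 and 4.05 FPKM in them, against 0.90 to 5.13 FPKM in the other 10. Without this pair of libraries the high-fat groups at 15h and 21h have no replicate, so a lack of calls for time in that fit cannot be read. In bulk tissue, fewer cells of a type and less RNA per cell cannot be told apart.

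The 8 genes differed widely in level, and their order depended on the length used. FPKM divide by all exons of a gene merged, and for Fabp4 this length was 4489 bases against 896 bases for its principal transcript, a ratio of 5.01. Per kilobase of the principal transcript, with the same scaling to depth, Fabp5, the epidermal fatty acid binding protein, led with 717 ± 95.9 (SD, n = 12). Cd36 followed at 139 ± 29.3 and Slc27a4 at 78.6 ± 12.3. Fabp4, the fatty acid binding protein of adipocytes and capillaries, came next at 64.8 ± 13.6, ahead of Slc27a1 at 46.0 ± 6.44 and Lpl at 40.9 ± 7.92. Ffar4 at 8.58 ± 3.67 and Slc27a3 at 6.85 ± 1.12 were the lowest on the same scale. Reads over all merged exons were divided by the length of the principal transcript. Levels are thus too high where reads fall outside that transcript, and the order rests on this. Reads of Fabp5 are uncertain because the mouse genome holds near-identical copies of it, and how reads with several matches were counted is not given in the sources used here. No exon of the 8 genes overlaps an exon of another annotated gene.

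**Figure D1:**
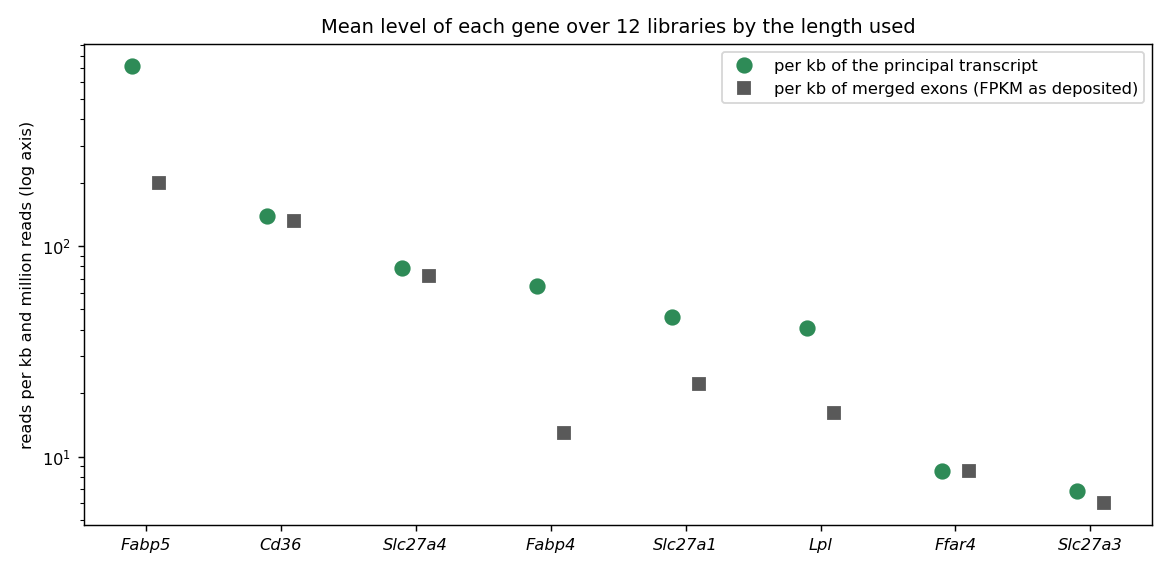
Mean level of each gene over the 12 libraries on a log axis, in depth-scaled reads per kb, divided by the principal transcript (circles) or by merged exons (squares, FPKM). Fabp4 lies at 64.8 per kb of principal transcript and at 12.9 FPKM, while Ffar4 is at 8.58 on both scales.

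Promoter windows from RefSeq, 250 bases before to 50 bases after a start site on GRCm38.p6, were found for 5 of the 8 genes, with 7 windows in all. Fabp4, Fabp5 and Lpl had none. The windows of Ffar4, Cd36 and Slc27a4 are printed because the first had the widest diet difference and the other two varied together across libraries. The Ffar4 window is chr19:38096829-38097128 on the plus strand, the Cd36 window chr5:17835847-17836146 on the minus strand and the Slc27a4 window chr2:29802384-29802683 on the plus strand. The Cd36 window lies inside the gene as annotated, which has other starts farther upstream. Capitals mark matches, on either strand, to the GC box GGGCGG, the CCAAT box CCAAT and the nuclear receptor half-site AGGTCA.
Ffar4: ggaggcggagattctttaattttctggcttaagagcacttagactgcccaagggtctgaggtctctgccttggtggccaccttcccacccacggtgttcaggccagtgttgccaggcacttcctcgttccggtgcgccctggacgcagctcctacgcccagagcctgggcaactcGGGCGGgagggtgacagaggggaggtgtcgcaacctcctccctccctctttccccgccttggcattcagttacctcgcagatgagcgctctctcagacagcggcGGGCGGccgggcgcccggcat
Cd36: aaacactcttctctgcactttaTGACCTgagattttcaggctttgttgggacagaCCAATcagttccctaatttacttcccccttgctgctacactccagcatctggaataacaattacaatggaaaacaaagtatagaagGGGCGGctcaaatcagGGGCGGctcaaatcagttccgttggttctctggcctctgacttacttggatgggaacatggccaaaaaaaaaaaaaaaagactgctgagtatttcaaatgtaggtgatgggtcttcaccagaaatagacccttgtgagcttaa
Slc27a4: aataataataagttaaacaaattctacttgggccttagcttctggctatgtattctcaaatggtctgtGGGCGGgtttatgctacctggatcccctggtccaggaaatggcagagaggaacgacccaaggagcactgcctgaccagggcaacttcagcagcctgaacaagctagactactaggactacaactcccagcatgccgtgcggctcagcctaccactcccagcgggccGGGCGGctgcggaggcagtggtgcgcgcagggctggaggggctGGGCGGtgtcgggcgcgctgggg
The E-box CACGTG, the TATA box TATAAA and the PPAR direct repeat AGGTCANAGGTCA, which contains the half-site, were also searched on both strands and had no match in these 3 windows. Ffar4 held 2 GC boxes, at -75 and +30 from the start, in a window with 63.7% G and C, against a median of 52.7% over all windows. Slc27a4 held 3 GC boxes. Cd36 held 2 GC boxes, 1 CCAAT box and 1 half-site, which reads TGACCT on the strand printed. Over all 32851 windows, 35.7% held a GC box, 37.4% a CCAAT box, 16.3% a half-site, 7.15% the E-box, 13.6% the TATA box and 0.0396% the direct repeat. A match describes letters in a window and not a bound site.

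Ffar4 was higher in high-fat than in control libraries at each of the 3 times. The gene (ENSMUSG00000054200) spans chromosome 19, 38097071 to 38114263 on the plus strand of GRCm38, has 1 annotated transcript, and had 91 to 341 reads per library. At 9h it had 9.95 and 14.9 FPKM in high-fat libraries, against 5.21 and 5.11 FPKM in control libraries. At 15h it had 7.36 and 9.48 FPKM in high-fat libraries, against 4.18 and 5.24 FPKM in control libraries. At 21h it had 14.6 and 11.2 FPKM in high-fat libraries, against 9.73 and 6.07 FPKM in control libraries. Both high-fat libraries lay above both control libraries each time, but the ranges of the diets overlapped across times, since the control library with 9.73 FPKM exceeded the high-fat libraries at 15h.

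Over all times Ffar4 averaged 11.2 ± 2.98 FPKM in high-fat and 5.92 ± 1.96 FPKM in control libraries (SD, n = 6 each), a ratio of 1.90. The ratio of means was 2.41 at 9h, 1.79 at 15h and 1.63 at 21h. On the log2(FPKM + 1) scale the difference was 0.83 ± 0.14 (SE) averaged over times, and 1.10, 0.72 and 0.66 at 9h, 15h and 21h (SE 0.24 each). A dependence of the diet difference on time was not detected beyond the spread between libraries in the interaction test of limma (unadjusted p = 0.415, adjusted p = 0.999). Ordered by group mean, the high-fat groups held the 3 highest places for Ffar4 (21h, 9h, 15h) and the control groups the 3 lowest (21h, 9h, 15h). In that order 3 of 5 neighbouring pairs overlapped in their libraries. Among them were high-fat 15h and control 21h, where the diets meet, with a log2 difference of 0.08 (SE 0.24). The genes were chosen with the diet values known, so this order is a description.

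The averaged diet contrast called 1.98% of all genes tested at an adjusted p under 0.05, and called 0.204% as higher. Because the genes were chosen on that contrast, a call of Ffar4 in it is not a test. Its log2 difference was 0.83 without both high-fat libraries numbered 6 at 15h and 21h and 0.81 with the library number as a replicate block. The log2 difference of Ffar4 stayed between 0.73 and 0.93 over the 12 fits that each left out 1 library. Ffar4 was the 1 gene of the 8 whose high-fat libraries lay above the controls at all 3 times, a pattern held by 1.6% of all genes tested. The pattern comes from the same diet values that were known when the genes were chosen, so it describes Ffar4 and is no support.

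**Figure D2:**
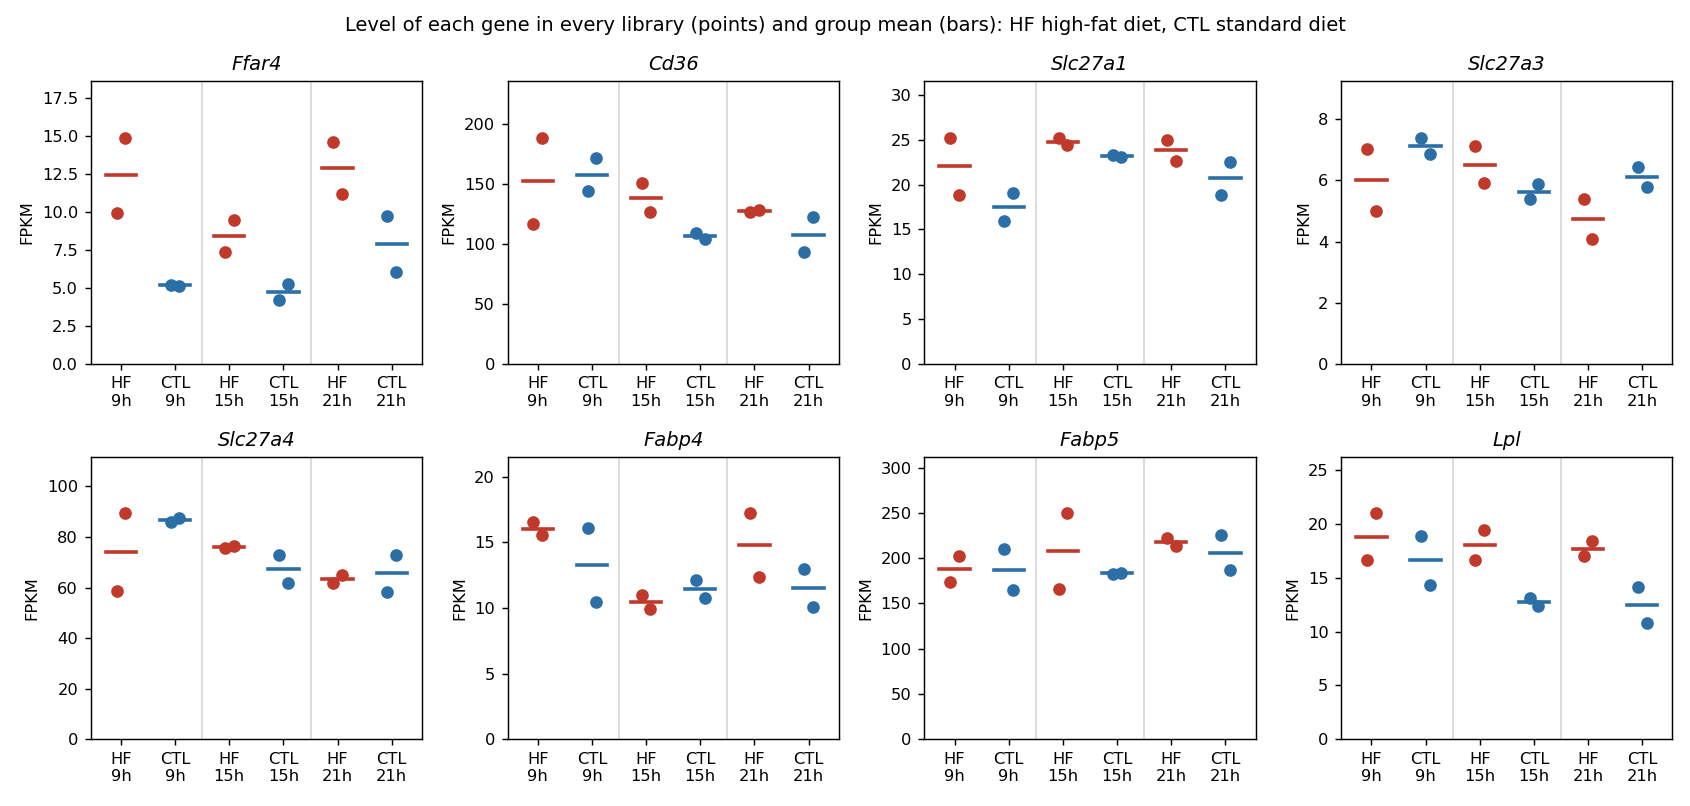
FPKM of each gene in every library (points), with the mean of each group of 2 (bars), high-fat (HF, red) left of control (CTL, blue) at each time. High-fat points of Ffar4 lie above the control points at 9h, 15h and 21h, whereas those of Fabp5 overlap them.

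The lipase Lpl (ENSMUSG00000015568, chromosome 8, 68880491 to 68907448, plus strand) had the second widest diet difference. At 9h it had 16.6 and 21.0 FPKM in high-fat libraries, against 18.9 and 14.3 FPKM in control libraries. At 15h it had 16.6 and 19.4 FPKM in high-fat libraries, against 13.1 and 12.3 FPKM in control libraries. At 21h it had 17.0 and 18.3 FPKM in high-fat libraries, against 14.1 and 10.8 FPKM in control libraries. The diets overlapped at 9h and were apart at 15h and 21h. Lpl averaged 18.2 ± 1.76 FPKM in high-fat and 13.9 ± 2.74 FPKM in control libraries (SD, n = 6 each). Its log2 difference was 0.37 ± 0.10 (SE) averaged over times, with 0.17, 0.47 and 0.48 at 9h, 15h and 21h (SE 0.17 each). In the high-fat groups the mean of Lpl was 18.8, 18 and 17.7 FPKM at 9h, 15h and 21h, and in the control groups it was 16.6, 12.7 and 12.5 FPKM. The interaction of diet and time for Lpl was not past the threshold (limma, adjusted p = 0.999).

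Cd36, a membrane receptor that binds long-chain fatty acids (ENSMUSG00000002944, chromosome 5, 17781690 to 17888801, minus strand), showed a diet difference that was small beside its spread. At 9h it had 116 and 189 FPKM in high-fat libraries, against 144 and 171 FPKM in control libraries. At 15h it had 150.5 and 127 FPKM in high-fat libraries, against 109 and 104 FPKM in control libraries. At 21h it had 127 and 129 FPKM in high-fat libraries, against 93.5 and 122 FPKM in control libraries. The high-fat libraries at 9h were the farthest apart and enclosed both controls, while at 15h and 21h they lay above the controls. Cd36 averaged 139.7 ± 26.5 FPKM in high-fat and 124 ± 29.1 FPKM in control libraries (SD, n = 6 each), with a log2 difference of 0.18 ± 0.13 (SE).

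The 3 acyl-CoA synthetase-linked transporters of the SLC27 family did not share a direction between the diets. Slc27a1 (FATP1, ENSMUSG00000031808, chromosome 8, 71568882 to 71587302, plus strand), known for insulin-responsive uptake in muscle and fat, averaged 23.6 ± 2.49 FPKM in high-fat and 20.5 ± 3.00 FPKM in control libraries, a log2 difference of 0.20 ± 0.09 (SE). Slc27a4 (FATP4, ENSMUSG00000059316, chromosome 2, 29802634 to 29817522, plus strand), which the skin barrier requires in mice, averaged 71.1 ± 11.5 FPKM in high-fat and 73.3 ± 12.0 FPKM in control libraries, a difference of -0.04 ± 0.11 (SE). Slc27a3 (FATP3, ENSMUSG00000027932, chromosome 3, 90385239 to 90389938, minus strand) averaged 5.76 ± 1.18 FPKM in high-fat and 6.29 ± 0.75 FPKM in control libraries, a difference of -0.12 ± 0.10 (SE). Each of these means is over 6 libraries with its SD.

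For Slc27a3 the sign of the diet difference was not the same at all times. It had 7.03 and 5.0 FPKM in high-fat libraries at 9h, against 7.40 and 6.88 FPKM in control libraries. At 15h it had 7.14 and 5.90 FPKM in high-fat libraries, against 5.38 and 5.89 FPKM in control libraries. At 21h it had 5.38 and 4.10 FPKM in high-fat libraries, against 6.43 and 5.79 FPKM in control libraries. The high-fat libraries lay above the controls at 15h, by a narrow gap, and below them at 21h. The interaction test did not pass the threshold (limma, unadjusted p = 0.133, adjusted p = 0.999).

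The binding proteins Fabp4 and Fabp5, which lie near each other on chromosome 3 (Fabp4, ENSMUSG00000062515, 10204088 to 10208576, minus strand; Fabp5, ENSMUSG00000027533, 10012548 to 10016607, plus strand), overlapped between the diets at every time. Fabp4 averaged 13.8 ± 3.07 FPKM in high-fat and 12.1 ± 2.24 FPKM in control libraries, a log2 difference of 0.16 ± 0.12 (SE). Fabp5 averaged 204.6 ± 31.4 FPKM in high-fat and 192.2 ± 21.8 FPKM in control libraries, a log2 difference of 0.08 ± 0.11 (SE, n = 6 libraries per diet). Fabp5 had the widest gap within a group at 15h, with 165.5 and 249.5 FPKM in high-fat libraries, against 183 and 184 FPKM in control libraries.

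Over the 8 genes, the median log2 difference between the diets was 0.17 and 6 were positive, beside a median of -0.01 over all genes tested. At 9h Ffar4 alone of the 8 had high-fat libraries above the controls, where 15.0% of all genes did. At 15h 6 of the 8 did (all but Fabp4 and Fabp5), where 19.0% of all genes did. At 21h Ffar4, Cd36, Slc27a1 and Lpl did, where 15.6% of all genes did, and Slc27a3 lay below, where 22.2% of all genes did. The list was chosen on the same diet values, so these shares describe it and support nothing.

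**Figure D3:**
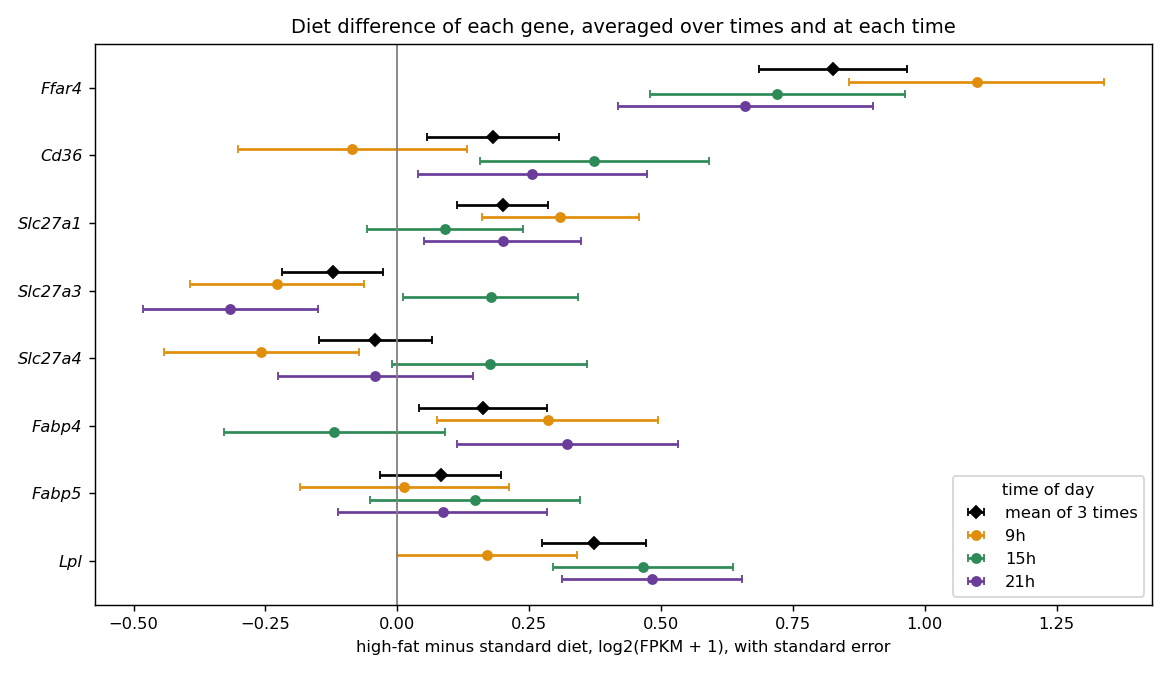
High-fat minus control difference of each gene on the log2(FPKM + 1) scale with its standard error, as the mean of 3 times (diamonds) and at each time (circles). Ffar4 stands at 0.83 and Lpl at 0.37 for the mean of 3 times, and Slc27a3 runs between 0.18 at 15h and -0.32 at 21h.

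Time of day was tested with both diets together, in contrasts that hold no diet difference. None of the 8 genes passed an adjusted p of 0.05 in the F test of time, where 1.46% of all genes tested were called. Ffar4 had the smallest p of the 8 there (unadjusted p = 0.0225, adjusted p = 0.150), and was the 1 gene of the 8 at an unadjusted p under 0.05, as were 23.6% of all genes. Its means were 8.79, 6.56 and 10.4 FPKM at 9h, 15h and 21h (SD 4.66, 2.35 and 3.52, n = 4 libraries each). The difference between 21h and 15h was 0.59 ± 0.17 (SE, adjusted p = 1.00), in a contrast that called 0 of all genes tested and had 1 of the 8 and 588 of all genes at an unadjusted p under 0.05. None of the 8 had its 4 libraries at 21h all above or all below those at 9h, where 6.24% of all genes had them above and 7.87% below.

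Between 21h and 9h no gene of the 8 was called, where 6.02% of all genes tested were. An unadjusted p under 0.05 was reached by 28.3% of all genes and by 2 of the 8. These were Cd36, which averaged 117.8 FPKM in the 21h and 155 FPKM in the 9h libraries with a difference of -0.38 ± 0.15 (SE, adjusted p = 0.142), and Slc27a4, which averaged 64.5 FPKM in the 21h and 80.4 FPKM in the 9h libraries with a difference of -0.30 ± 0.13 (SE, adjusted p = 0.171). Between 15h and 9h no gene of the 8 was called, where 0.0227% of all genes were. Slc27a1 (0.28 ± 0.11 SE, adjusted p = 0.160) and Fabp4 (-0.37 ± 0.15 SE, adjusted p = 0.184) had an unadjusted p under 0.05. The same held for 23.2% of all genes. Within diets, 0 of the 8 were called in the F test of time in high-fat libraries, where 0 of all genes were, and 0 of the 8 in control libraries, where 0.0227% were. Cd36 was the 1 gene of the 8 at an unadjusted p under 0.05 in the control test (adjusted p = 0.266). Over all genes, 18.3% had such a p in that test. In the high-fat test none of the 8 did, where 8.73% of all genes did. The test of the interaction called 0 of the 8 and 0 of all genes, with 0 of the 8 and 405 of all genes at an unadjusted p under 0.05. A linear model on recovered reads with precision weights (voom) called 0 of the 8 in each of these tests. Over all genes it called 1061 for 21h minus 9h, 297 in the F test of time and at most 4 in each other test.

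The time result for Cd36 and Slc27a4 depended on which of the high-fat libraries at 9h was kept. In high-fat libraries at 9h, Cd36 had 116 FPKM in library 6 and 189 FPKM in library 7, and Slc27a4 had 58.6 and 89.4 FPKM in the same libraries, while Slc27a4 in the controls at 9h had 85.9 and 87.7 FPKM. Library 6 was thus the lowest of the 4 at 9h for both genes. Without it, the difference of Cd36 was -0.56 between 21h and 9h (adjusted p = 0.0145) and -0.50 between 15h and 9h (adjusted p = 0.0242), and that of Slc27a4 was -0.45 between 21h and 9h (adjusted p = 0.0152). Slc27a1 was then higher at 15h than at 9h by 0.38 (adjusted p = 0.0258). In the F test of time without library 6, Cd36 (adjusted p = 0.0287) and Slc27a4 (adjusted p = 0.0372) were called too. The same omission raised the calls over all genes to 25.5% for 21h against 9h, to 20.5% for 15h against 9h and to 19.0% in the F test, so that these 3 genes were called along with many others. Library 7 was the highest of the 4 at 9h for both Cd36 and Slc27a4. Leaving it out instead gave smaller differences between 21h and 9h, -0.21 for Cd36 and -0.15 for Slc27a4. With all libraries these were -0.38 and -0.30. The summed FPKM of 12 meibocyte and sebocyte markers was 8073 in library 6 and 12666 in library 7. In the controls at 9h the sum was 9519 and 10767, and the part of these markers in the result was not tested.

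Across libraries the 8 genes did not vary as a block. Over their 28 pairs the median Pearson r of log2(FPKM + 1) was 0.02, with a lowest of -0.51 and 5 pairs above 0.5. Cd36 and Slc27a4 were the closest pair (r = 0.82 over 12 libraries), and r was 0.72 without the 2 libraries farthest from the median of Cd36. Taken as deviations from group means, which hold 6 independent values per gene, their r was 0.89. Ffar4 was closest to Lpl (r = 0.62, and 0.45 without the 2 farthest libraries). These correlations are descriptions, since the libraries share diet, time, tissue makeup and depth.

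Several of the 8 genes moved with markers of a cell type. Fabp4 followed the mean of 8 adipocyte markers across the 12 libraries (r = 0.84, and 0.81 without the 2 farthest libraries). The summed FPKM of the whole list of 11 adipocyte markers ran between 78.4 and 109 in high-fat libraries and between 74.2 and 102 in control libraries, and Lep, Pck1 and Adrb3 stayed too low to be tested, though no marker was at 0 in all libraries. Cd36 followed 12 meibocyte and sebocyte markers (r = 0.74, and 0.49 without the 2 farthest libraries), as Slc27a4 did (r = 0.57, and 0.28), and as deviations from group means their r with these markers was 0.89 and 0.94. Cd36 ran against 11 endothelial markers (r = -0.80, and -0.60), as Slc27a4 did (r = -0.76, and -0.58). As deviations from group means, the r with the endothelial markers was -0.97 for Cd36 and -0.82 for Slc27a4. The summed FPKM of the endothelial markers ran between 46.8 and 64.2 in high-fat and between 40.1 and 60.3 in control libraries. Slc27a1 ran against 12 muscle markers (r = -0.64, and -0.36), with sums between 2782 and 7914 in high-fat and between 3090 and 7467 in control libraries. Ffar4 had an r of 0.44 with the meibocyte and sebocyte markers (0.49 without the 2 farthest libraries) and of 0.53 with the adipocyte markers (0.40). As deviations from group means these were 0.25 and 0.31. The part of tissue makeup in these levels was not tested.

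**Figure D4:**
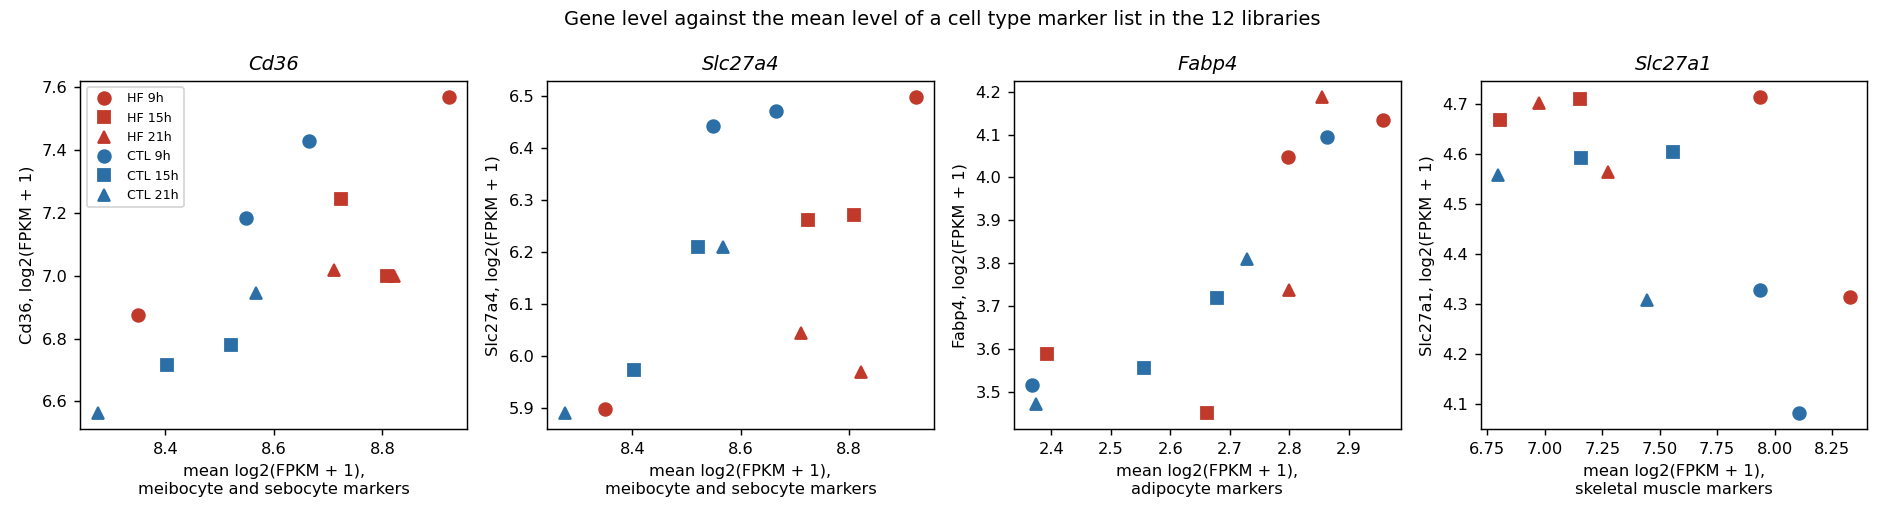
Level of 4 genes against the mean level of a marker list, both in log2(FPKM + 1), with 1 point per library (red high-fat, blue control; circles 9h, squares 15h, triangles 21h). Fabp4 rises with the adipocyte markers (r = 0.84) and Cd36 with the meibocyte and sebocyte markers (r = 0.74), while Slc27a1 runs down the muscle markers (r = -0.64).

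The same marker lists differed in part with diet and time. Averaged over times, all 12 meibocyte and sebocyte markers had positive diet differences (median 0.23). At 9h 6 of the 12 were positive (median 0.00026), and at 15h and 21h all 12 were (medians 0.32 and 0.36). In the averaged contrast 1 of the 12 was called, where 1.98% of all genes tested were and 0.204% as higher. It was the sterol acyltransferase Soat1, higher in high-fat libraries by 0.42 ± 0.08 (SE, limma, adjusted p = 0.0408). The marker lists were chosen with earlier results of these data known, so their diet and time differences are a description and not a test. The call of Soat1 was lost in 9 of the 12 fits without 1 library. The summed FPKM of the 12 meibocyte and sebocyte markers ran between 8073 and 12666 in high-fat and between 7537 and 10767 in control libraries. Of 12 muscle markers, 7 were lower at 21h than at 9h past the threshold (median -0.95 over the 12). Of all genes tested, 6.02% were called in that contrast. The summed FPKM of the 12 muscle markers ran between 3090 and 4719 at 21h and between 6133 and 7914 at 9h. Among the 7 were Atp2a1 at -1.60, Actn3 at -1.27 and Ryr1 at -1.09 (adjusted p = 0.0218 each). These 3 calls were lost in 4 or 5 of the 12 fits without 1 library. The macrophage markers had a median diet difference of -0.52 and none of 12 was called. No endothelial or keratinocyte marker was called for diet, and their median differences were 0.05 and -0.17.

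Among genes with a mean of at least 5 FPKM, 7799 candidates, the genes most like Ffar4 over the 12 libraries included Mvk (r = 0.88), mevalonate kinase, and Gadd45g (r = 0.88), a stress-responsive growth arrest gene. They also included Pmvk (r = 0.86), phosphomevalonate kinase, and St3gal5 (r = 0.84), the ganglioside GM3 synthase. These libraries share diet and time, and r carries no test. Pmvk averaged 168 ± 38.1 FPKM in high-fat and 104 ± 13.8 FPKM in control libraries (SD, n = 6 each). The diet difference enters r, and as deviations from group means r was 0.77 for Pmvk and 0.60 for Mvk.

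For the other genes the 2 closest were as follows. Cd36 was closest to Mia2 (r = 0.99) and Fads6 (r = 0.98), and Slc27a4 to Ttll12 (r = 0.96) and Arl8b (r = 0.95). Slc27a1 was closest to Cnot10 (r = 0.96) and Gigyf1 (r = 0.96), and Slc27a3 to Atxn7l3 (r = 0.92) and Cyb5d1 (r = 0.89). Fabp4 was closest to Ppp1r3c and Ddx1 (r = 0.84 each), Fabp5 to Prss12 (r = 0.90) and Klk6 (r = 0.85), and Lpl to Retreg1 (r = 0.88) and Gpt2 (r = 0.83). Mia2 differed little in level between the diets, at 12.2 ± 0.81 FPKM in high-fat and 11.6 ± 0.92 FPKM in control libraries.

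The other receptors for fatty acids were near the limit of detection, and Ffar4 had the highest FPKM of those listed. Ffar1, a receptor for long-chain fatty acids as Ffar4 is, had 0 reads in the 6 high-fat libraries, which allows up to 0.00759 FPKM over the group (3 reads, counting error only), and at most 0.14 FPKM in a control library. The short-chain fatty acid receptors Ffar2 and Ffar3 reached at most 0.46 and 0.10 FPKM in any library, and the medium-chain fatty acid receptor Gpr84 0.38 FPKM. Gnaq, Gna11, Arrb1 and Arrb2, through which FFAR4 signals, were tested and 0 of 4 were called for diet or time. Over all genes tested, 1.98% were called for averaged diet, 1.46% in the F test of time and 6.02% for 21h minus 9h. With 4 genes, 0 calls is near those shares, so it is no result about these genes.

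Of the other transport proteins, Slc27a6 was the 1 tested, at 6.59 ± 0.49 FPKM in high-fat and 5.46 ± 1.21 FPKM in control libraries, and Slc27a2 and Slc27a5 stayed at or below 0.19 FPKM. Of the other binding proteins, Fabp3 of muscle and heart averaged 48.2 ± 19.4 FPKM in high-fat and 36.2 ± 17.3 FPKM in control libraries, and Fabp6 averaged 5.26 ± 1.71 FPKM in high-fat and 6.76 ± 1.42 FPKM in control libraries. Fabp1 and Pmp2 had 0 reads in all 12 libraries, which allows up to 0.0283 and 0.0111 FPKM over them (3 reads, counting error only). Fabp2, Fabp7, Fabp9 and Fabp12 did not pass the filter, with at most 1.13 FPKM in a library. Around Lpl, its endothelial anchor Gpihbp1 averaged 2.98 ± 0.53 FPKM in high-fat and 1.98 ± 1.06 FPKM in control libraries, and its inhibitor Angptl4 averaged 16.4 ± 5.10 FPKM in high-fat and 13.3 ± 2.52 FPKM in control libraries (SD, n = 6 each).

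Over 7 lists of the fatty acid pathway without the 8 genes, 38 of 57 listed genes were tested. For the averaged diet contrast 0 of the 38 were called, where 1.98% of all genes tested were. Their median difference was 0.00, beside -0.01 over all genes. Between 21h and 9h, 3 of the 38 were called, where 6.02% of all genes tested were. That share is near the background, so the calls are given as values of these genes and not as a result about the lists. Fabp3 fell to 33.2 FPKM in the 21h libraries, against 63.7 FPKM in the 9h libraries (-0.95 ± 0.20 SE, adjusted p = 0.0316). Vldlr, a lipoprotein receptor that works with Lpl, fell to 3.97 FPKM at 21h, against 6.64 FPKM at 9h (-0.63 ± 0.11 SE, adjusted p = 0.0240). Rxra, the partner receptor of the PPARs, fell to 26.8 FPKM at 21h, against 39.5 FPKM at 9h (-0.53 ± 0.12 SE, adjusted p = 0.0362). Fabp3 is also a muscle gene, and the muscle markers were lower at 21h in the same libraries; their part in its difference was not tested. The calls of Fabp3, Vldlr and Rxra were lost in 8, 5 and 9 of the 12 fits without 1 library, among them those without control 9h library 2 or 3, in which 6 or 4 genes were called over all, beside 796 with all libraries. Mfsd2a, a transporter of lysophosphatidylcholine that carries omega-3 fatty acids, was named after its values were seen, at 12.9 ± 4.48 FPKM in high-fat and 6.50 ± 1.20 FPKM in control libraries (SD, n = 6 each).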

How the data were processed

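RNA was measured in 12 libraries of mouse eyelid tissue, 2 for each diet and time. The deposited values are FPKM for 21936 genes. Extraction with Trizol and a NEB library kit are given per the labels' protocols. The submitters' processing notes name mm9 as the build and, as tools, HISAT2 2.0.5, DESeq 1.30.0 and HTSeq 0.9.1. How reads were turned into FPKM by the authors, with which annotation and strand setting, is not given in the sources used here. With merged exon lengths of GENCODE M21 on GRCm38, which holds 21817 of the gene IDs, 98.1% of the nonzero FPKM values came out as whole reads within 0.02 reads. These recovered reads give the depth. Coordinates are those of GENCODE M21, and none were converted.

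Values were tested as log2(FPKM + 1) with limma 3.58.1 (mean-dependent prior, R 4.3.3) in 13228 genes that exceeded 1 FPKM in 2 or more libraries. The model had 6 group means and 6 residual degrees of freedom, so the groups shared 1 estimate of the spread. P-values were adjusted by Benjamini-Hochberg over these genes, with 0.05 as the threshold for a call. Differences of genes near 1 FPKM are understated on this scale. The script was tested on simulated data.

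The 8 genes and all lists were chosen with earlier results of these data known. Named genes are the 8, the 5 genes of highest Pearson r with Ffar4 and 2 with each other gene among those averaging at least 5 FPKM, called list genes (up to 3 per contrast), the Ffar, Slc27a and Fabp families, Gpihbp1, Angptl4 and leading markers. A gene that this rule would name is not reported here. Alternatives were a pseudocount of 0.1, no filter, size-factor scaling, voom on recovered reads, the 4 libraries of 1 time, a replicate block, Spearman rho and deviations for likeness, and leaving out libraries.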

Additional observations from a re-analysis of the deposited data

Results flagged for a closer look

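Ffar4 in control 21h library 1 had 9.73 FPKM and lay far from the other 5 control libraries, which ran between 4.18 and 6.07 FPKM. It was the 1 library flagged by Dixon's gap ratio among 16 sets of 6 libraries (8 genes in 2 diets). Chance flags about 1 in 20 sets of like libraries, but each set here mixes 3 times of day, so that rate is a rough guide. Control 21h library 1 also had the highest mean of the keratinocyte markers among the 12 libraries (8.03 on the log2 scale). Its summed FPKM of meibocyte and sebocyte markers was the lowest (7537). The part of time or of tissue makeup in the gap was not tested. Without this library the log2 diet difference of Ffar4 was 0.93, beside 0.83 with it.

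The diet difference of Slc27a3 had opposite signs at 2 times, 0.18 ± 0.17 (SE) at 15h and -0.32 ± 0.17 (SE) at 21h on the log2 scale. Every high-fat library lay above the controls at 15h and below them at 21h. The gap at 15h was narrow, with 5.90 FPKM in a high-fat and 5.89 FPKM in a control library. The interaction over the 3 times had an unadjusted p of 0.133 and an adjusted p of 0.999 in limma.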

How the results depend on the processing

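The log2 diet difference of Ffar4 was 0.81 with the replicate block and 0.83 without the high-fat libraries numbered 6 at 15h and 21h, and under both 0 of the 8 genes were called. Leaving out each library in turn gave 0.73 to 0.93 and 0 to 1 genes called, with 0 without control 9h library 2, control 15h library 2 or high-fat 21h library 3. The genes were chosen on this contrast, so these diet calls are no test of them. In the same fits the genes called numbered 0 to 2 for 15h minus 9h, 0 to 2 for 21h minus 9h and 0 to 2 in the F test of time, with the calls made without high-fat 9h library 6. Small time differences changed sign. With the replicate block, Cd36 for 21h minus 15h was 0.043 and Slc27a4 for 15h minus 9h was 0.000454. Fabp5 for 15h minus 9h was -0.024 with size factors, -0.014 with voom and -0.10 without the libraries numbered 6. With 1 library left out, the 15h minus 9h differences ran between -0.10 and 0.20 for Fabp5, -0.20 and 0.012 for Slc27a3, and -0.30 and 0.0018 for Slc27a4. The 21h minus 15h differences ran between -0.15 and 0.043 for Cd36, -0.016 and 0.28 for Fabp5, and -0.12 and 0.061 for Lpl. The cause was not tested.

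Whether the numbers in the library labels pair the samples could not be decided. In groups of 2 libraries the deviations from the group mean are mirror images, so the values of r below are not independent. Of 12 pairs of libraries with the same number, 3 had deviations that correlated above 0.1, and r ran between -0.50 and 0.29. The replicate block left 2 residual degrees of freedom, too few to read a lack of calls as an effect of pairing. With it the calls over all genes were 0, beside 262, for the averaged diet contrast and 0, beside 796, for 21h minus 9h. Over all genes, leaving out 1 library gave 143 to 293 calls for diet, 4 to 3375 for 21h minus 9h, 0 to 2712 for 15h minus 9h (3 in all libraries) and 1 to 2509 in the F test of time (193 in all libraries). Without the filter these were 429 for 21h minus 9h and 7 for the F test, which had 126 with a pseudocount of 0.1 and 297 with voom. Depth limits Ffar4 and Slc27a3 most, which had the fewest reads of the 8.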
